A study of Mus musculus with 4 samples.

Results

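The integrated stress response and the unfolded protein response were examined in hippocampal RNA through 10 genes, chosen by their names in the deposited count table: Atf4, Ddit3, Atf3, Trib3, Asns, Hspa5, Xbp1, Ppp1r15a, Sesn2 and Chac1. All 10 were found, each in 1 row, among the 29300 genes of the table. The samples were hippocampi of male mice of the strain C57BL/6, which were 7 to 8 months old, from 2 sham control mice and 2 surgery mice, taken 1 day after the operation. Every mouse received isoflurane and tramadol, and the surgery mice also had an open tibial fracture that was nailed. The contrast therefore concerns the fracture on a background of anesthesia and analgesia that the controls share. The mice were wild type, with no transgene and no deleted gene, and each library is labelled as a separate sample. Nothing in the labels says whether a library held 1 hippocampus or both.

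In the integrated stress response, 4 kinases sense different insults and phosphorylate the translation factor eIF2, which lowers protein synthesis in general and favors translation of the transcription factor ATF4. In the unfolded protein response, misfolded protein in the endoplasmic reticulum (ER) activates the sensors PERK, IRE1 and ATF6, of which PERK is also one of the eIF2 kinases. In the hippocampus, phosphorylation of eIF2 is known as a brake on the forming of long-term memory. Gene counts show the amount of each mRNA. The phosphorylation of eIF2, the translation of Atf4 and the splicing of Xbp1 mRNA by IRE1 cannot be read from them.

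Library totals ran from 15763432 to 18573386 counts, and within each group the counts varied beyond sampling noise (chi-square per degree of freedom 13.4 between the control mice and 8.45 between the surgery mice). Markers of hippocampal principal cells were detected in all libraries, with summed levels from 814 to 1003 CPM (counts scaled to the size of the library). The 6 neuron markers summed to 6036 and 5884 CPM in the control mice and to 5572 and 5282 CPM in the surgery mice, with Tubb3 and Slc17a7 called lower. Among 5 markers each, the astrocyte genes Aqp4 and Gja1 and the endothelial genes Flt1 and Slco1a4 were called higher and the astrocyte gene Aldh1l1 lower. The microglia gene P2ry12, 1 of 6 markers, was called higher and the neutrophil gene Ltf, 1 of 4 tested, lower. The oligodendrocyte markers summed to 3733 CPM in surgery mouse 2 and to between 5081 and 5869 CPM in the other libraries. The 5 choroid plexus markers had a summed level of 127 and 5399 CPM in the control mice and 2031 and 3440 CPM in the surgery mice. Among them, Ttr had 90.9 and 5078 CPM in the control mice and 1914 and 3255 CPM in the surgery mice. The chi-square values above are pooled over genes that include Ttr, and its part in them was not tested. Counts of mitochondrially encoded genes other than rRNA took up 2.82% and 2.53% of the control libraries and 4.45% and 4.49% of the surgery libraries. Over all tested genes, the log2 fold change fell with the GC content of the transcript, from a median of 0.59 in the eighth of genes with the lowest GC content to -0.34 in the eighth with the highest.

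Of the 10 genes, 1 was higher in surgery mice than in control mice at an adjusted p under 0.05 by edgeR's quasi-likelihood test, and that gene was Xbp1. The share of all 17144 tested genes that were higher at this threshold was 13.1%, and 12.8% were lower, so that 1 gene in 10 is close to this share. None of the 10 genes passed as lower in edgeR, and none passed as lower in DESeq2. At an unadjusted p under 0.05 in edgeR, 2 of the 10 genes were higher and 1 was lower. The share of all tested genes at this unadjusted threshold was not counted. None of the 10 genes reached the fold change of 1.5 or 0.67 that the study set for a differentially expressed gene (DEG). The DEG rule used here takes this fold change together with an adjusted p under 0.05 by edgeR. It was met by 6.75% of all tested genes as higher and 2.25% as lower. The median log2 fold change of the 10 genes was 0.04, beside 0.01 over all tested genes, and their values ran from -0.44 to 0.51 with standard errors from 0.07 to 0.46. In 2 of the 10 genes both surgery mice lay above both control mice and in 3 both lay below, while 33.2% and 32.2% of all tested genes were separated in these directions. All 10 genes passed the filter on low counts. Since these are bulk samples, fewer cells of a type and less RNA per cell cannot be told apart in any of these values.

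**Figure D1:**
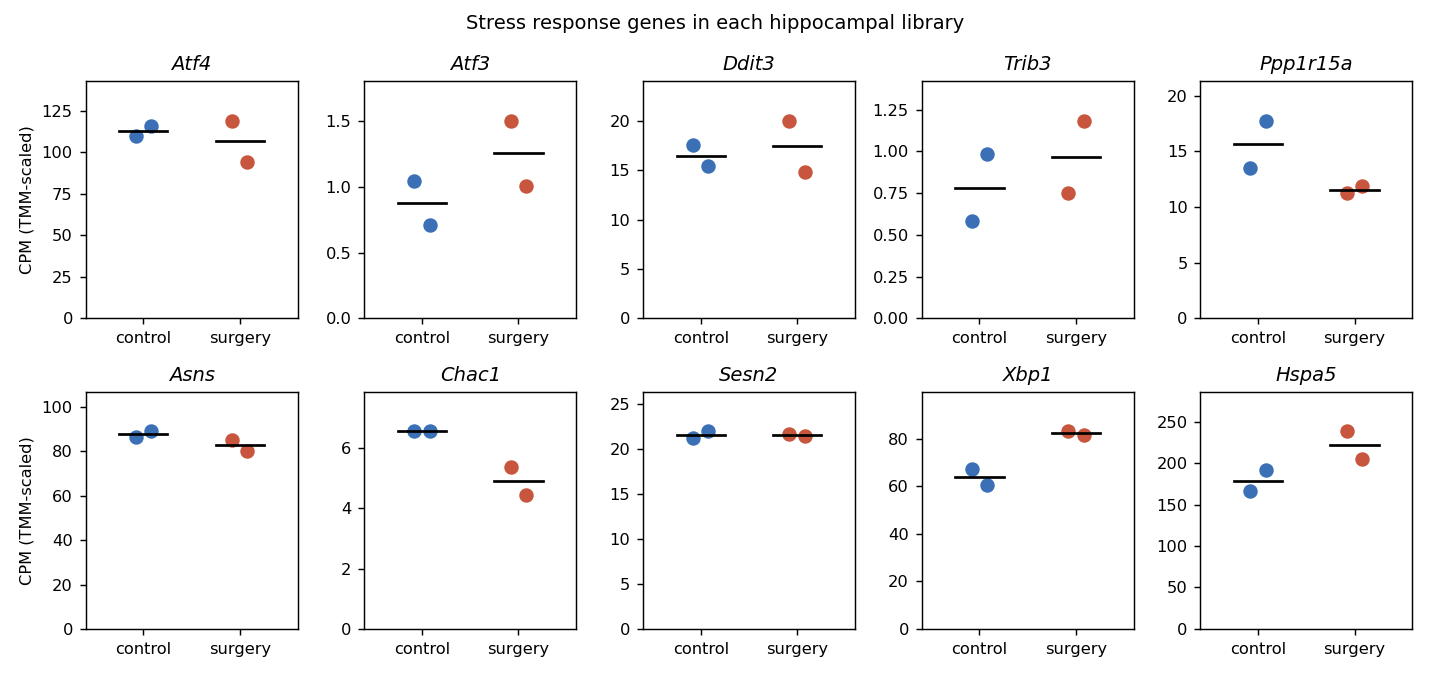
Level of each of the 10 genes in CPM after TMM scaling (vertical axes, each from 0) in the 2 control and 2 surgery mice (points), with the group mean as a line. Xbp1 and Hspa5 lie higher in both surgery mice, Ppp1r15a, Asns and Chac1 lie lower in both, and the groups of the other 5 genes overlap.

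The level of Xbp1, which encodes the transcription factor that IRE1 activates by splicing, was 67.3 and 60.6 CPM in the control mice and 83.1 and 81.5 CPM in the surgery mice. Both surgery mice lay above both control mice. The log2 fold change was 0.36 (standard error 0.08, 95% interval 0.17 to 0.55), a 1.29-fold higher level, with an adjusted p of 0.019 by edgeR. The adjusted p ran from 0.0070 to 0.091 over the alternatives, with the highest value without control mouse 2, where the log2 fold change was 0.28. In that control mouse, which had the highest choroid plexus markers of the 4 libraries, Xbp1 had its lowest level, and the part of that tissue in the value was not tested. Xbp1 (ENSMUSG00000020484, mm10 chromosome 11, 5520659 to 5525893, plus strand) has a GC content of 53.0%, and the median log2 fold change of all tested genes in its eighth of GC content was -0.17. With each library's trend with transcript length and GC content removed, the log2 fold change of Xbp1 was 0.49 (standard error 0.09, adjusted p = 0.0497 by edgeR), in a fit that called 0.706% of all tested genes higher and 1.74% lower.

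Hspa5 (ENSMUSG00000026864, chromosome 2, 34771970 to 34777547, plus strand) encodes BiP, the main ER chaperone, which also holds the stress sensors inactive. Its level was 166 and 191 CPM in the control mice and 238 and 205 CPM in the surgery mice, without overlap. The log2 fold change was 0.31 (standard error 0.10, 95% interval 0.07 to 0.55) and the adjusted p was 0.064 by edgeR, so that Hspa5 did not pass. It passed in DESeq2 (adjusted p = 0.023), with library totals as the only scaling (adjusted p = 0.041 by edgeR), without control mouse 2 (0.043) and without surgery mouse 2 (0.024), and over all alternatives the adjusted p ran from 0.023 to 0.64. The highest value came with the length and GC trends removed, where the log2 fold change was 0.10. The control mouse with the lower Hspa5 level was also the one with few choroid plexus markers, and the part of that tissue in the value was not tested. Without that mouse the log2 fold change was 0.21 (adjusted p = 0.22 by edgeR), and without surgery mouse 1 it was 0.18 (0.25).

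Atf4 (ENSMUSG00000042406, chromosome 15, 80255184 to 80257540, plus strand), the central transcription factor of the integrated stress response, had 110 and 116 CPM in the control mice and 119 and 94.2 CPM in the surgery mice. The surgery mice lay on either side of the control mice, and the log2 fold change was -0.08 (standard error 0.11, 95% interval -0.35 to 0.19). Its sign followed the settings, from -0.28 without surgery mouse 1 to 0.13 with the length and GC trends removed, and Atf4 passed under none of the alternatives. The 95% interval with the trends removed ran from -0.16 to 0.42.

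Ddit3 (ENSMUSG00000025408, chromosome 10, 127290774 to 127296288, plus strand) encodes CHOP, a transcription factor linked to cell death under prolonged ER stress. Its level was 17.6 and 15.4 CPM in the control mice and 20.1 and 14.8 CPM in the surgery mice, with overlapping groups and a log2 fold change of 0.08 (standard error 0.17, 95% interval -0.34 to 0.49). The sign turned with the length and GC trends removed (-0.15), without surgery mouse 1 (-0.17) and without control mouse 2 (-0.02). The log2 fold change was 0.17 without control mouse 1 and 0.29 without surgery mouse 2. Exons of Ddit3 overlap those of Mars on the opposite strand and a second gene model of the same name on the same strand. Its count is therefore uncertain, for an opposite strand where the counting used no strand, and for the same strand in either case. Atf3 (ENSMUSG00000026628, chromosome 1, 191170296 to 191218039, minus strand), a stress-induced transcription factor that acts together with ATF4, was counted 18 and 13 times in the control mice and 24 and 17 times in the surgery mice. Trib3 (ENSMUSG00000032715, chromosome 2, 152337422 to 152344032, minus strand), a pseudokinase that ATF4 and CHOP induce and that restrains them, was counted 10 and 18 times in the control mice and 12 and 20 times in the surgery mice. The log2 fold changes of these genes of low level were 0.51 (standard error 0.41) and 0.30 (0.46). That of Atf3 was 0.19 without surgery mouse 1, 0.25 without control mouse 2, 0.80 without control mouse 1 and 0.78 without surgery mouse 2. That of Trib3 was -0.02 without control mouse 1, -0.06 without surgery mouse 2, 0.74 without control mouse 2 and 0.57 without surgery mouse 1. Their 95% intervals ran from -0.48 to 1.503 and from -0.79 to 1.401. Both intervals reach past 1 on the log2 scale, so that a rise of that size could have been missed at this depth.

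Ppp1r15a (ENSMUSG00000040435, chromosome 7, 45522916 to 45526268, minus strand) encodes GADD34, the inducible subunit that brings a phosphatase to eIF2 and so ends the response. Its level was 13.5 and 17.8 CPM in the control mice and 11.2 and 11.9 CPM in the surgery mice. The surgery mice lay below the control mice, and the log2 fold change was -0.44 (standard error 0.17, 95% interval -0.84 to -0.03), with an adjusted p of 0.11 by edgeR. Over the alternatives the adjusted p ran from 0.041, without control mouse 1, where the log2 fold change was -0.63, to 0.45. Without control mouse 2 the log2 fold change was -0.23, and with the length and GC trends removed it was -0.22. Ppp1r15a has a GC content of 55.7%, and the median log2 fold change of all tested genes in its eighth was -0.25. Its exons overlap those of Tulp2 on the opposite strand.

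Chac1 (ENSMUSG00000027313, chromosome 2, 119351229 to 119354381, plus strand), which encodes an enzyme that breaks down glutathione, had 6.56 and 6.57 CPM in the control mice and 5.39 and 4.44 CPM in the surgery mice. The groups did not overlap, yet the log2 fold change of -0.42 (standard error 0.20, 95% interval -0.89 to 0.06) did not pass (adjusted p = 0.17 by edgeR, 0.16 to 0.67 over the alternatives). With the length and GC trends removed it was -0.17, and without surgery mouse 2 it was -0.28. The median of all tested genes in its eighth of GC content was -0.34. Asns (ENSMUSG00000029752, chromosome 6, 7675169 to 7693254, minus strand) encodes asparagine synthetase, a standard target of ATF4 when amino acids are short. Its level was 86.3 and 89.0 CPM in the control mice and 85.0 and 80.3 CPM in the surgery mice. The log2 fold change was -0.09 with a narrow 95% interval from -0.25 to 0.08, and -0.18 with the trends removed. Without surgery mouse 1 it was -0.14, and without surgery mouse 2 it was -0.04. Sesn2 (ENSMUSG00000028893, chromosome 4, 132492032 to 132510501, minus strand), a leucine sensor that restrains mTORC1, had the most even level of the 10 genes over the 4 libraries, with 21.2 and 22.0 CPM in the control mice and 21.7 and 21.5 CPM in the surgery mice. Its log2 fold change was 0.00 (standard error 0.10, 95% interval -0.24 to 0.24).

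**Figure D2:**
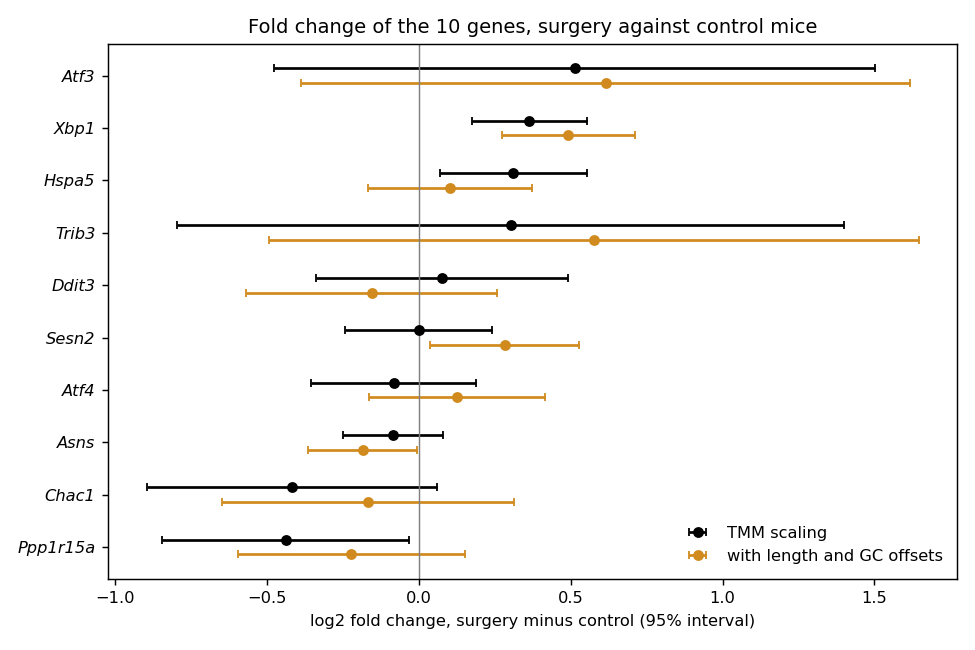
Log2 fold change of each of the 10 genes, surgery minus control (horizontal axis), with its 95% interval from edgeR, after TMM scaling (black) and with the length and GC trends of each library removed (orange). The interval of Xbp1 lies above 0 in both fits, those of Hspa5 and Ppp1r15a exclude 0 only after TMM scaling, and those of Sesn2 and Asns exclude 0 only with the trends removed, without passing the adjustment.

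The 10 genes differed widely in abundance. Given per kilobase of the longest transcript, the mean level in the control mice was 55.9 ± 2.00 CPM per kb for Atf4, 48.6 ± 4.90 for Hspa5, 43.5 ± 0.943 for Asns, 30.04 ± 2.25 for Xbp1 and 17.0 ± 1.58 for Ddit3 (SD, n = 2). Sesn2 (6.21 ± 0.164), Ppp1r15a (5.57 ± 1.07) and Chac1 (4.01 ± 0.00228) formed a middle range, and Atf3 (0.443 ± 0.119) and Trib3 (0.386 ± 0.141) were the lowest, in the same unit. Among neighbors in this order, the control mice overlapped between Sesn2 and Ppp1r15a and between Atf3 and Trib3. In the surgery mice Hspa5 (60.4 ± 6.44 CPM per kb) had a higher mean than Atf4 (52.8 ± 8.71), with overlapping libraries, and the order of the other 8 genes was the same.

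The promoters were compared for the elements that the transcription factors of these pathways bind. RefSeq windows (GRCm38.p6) of the 250 bases before the transcription start were searched on both strands, and all 10 genes matched. The elements were the C/EBP-ATF response element bound by ATF4 dimers (CARE, letters TGATGNAA), the ER stress element bound by ATF6 (ERSE, CCAAT followed by 9 bases and then by CCACG), the unfolded protein response element (UPRE, TGACGTGG) and the cAMP response element (CRE, TGACGTCA). CARE letters occur in 3.45% of all windows of this length, ERSE in 0.113%, UPRE in 0.563% and CRE in 1.55%. Of the 10 genes, Asns, Chac1 and Atf3 hold a CARE match, Hspa5 an ERSE match and Ppp1r15a a CRE match. No letters of these 4 elements were found in the windows of the other 5, Xbp1 among them. The windows of Xbp1 and Trib3 end before the start of the gene by the coordinates given above, and the bases between were not searched. The windows of Xbp1 and Hspa5, the 2 genes with both surgery mice above the controls, and of Chac1, Asns and Ppp1r15a, the 3 with both below, are shown because these groups did not overlap, and follow in that order, 5′ to 3′ on the strand of the gene, with matches in capitals. They lie at chr11:5520391-5520640 (plus strand), chr2:34771840-34772089 (plus), chr2:119350992-119351241 (plus), chr6:7693210-7693459 (minus) and chr7:45526269-45526518 (minus).
Xbp1: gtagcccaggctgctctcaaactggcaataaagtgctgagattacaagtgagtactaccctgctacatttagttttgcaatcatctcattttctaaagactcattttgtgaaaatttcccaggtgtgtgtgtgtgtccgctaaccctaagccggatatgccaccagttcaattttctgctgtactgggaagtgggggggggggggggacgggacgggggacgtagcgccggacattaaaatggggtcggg
Hspa5: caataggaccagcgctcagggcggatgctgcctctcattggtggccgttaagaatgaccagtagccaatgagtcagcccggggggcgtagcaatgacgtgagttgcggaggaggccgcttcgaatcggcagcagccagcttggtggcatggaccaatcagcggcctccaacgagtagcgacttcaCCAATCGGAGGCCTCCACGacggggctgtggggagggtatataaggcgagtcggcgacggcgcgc
Chac1: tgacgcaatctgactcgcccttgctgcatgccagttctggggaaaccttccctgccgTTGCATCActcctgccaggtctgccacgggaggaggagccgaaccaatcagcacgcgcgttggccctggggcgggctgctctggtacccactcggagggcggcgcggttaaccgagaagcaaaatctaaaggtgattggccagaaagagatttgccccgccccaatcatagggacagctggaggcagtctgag
Asns: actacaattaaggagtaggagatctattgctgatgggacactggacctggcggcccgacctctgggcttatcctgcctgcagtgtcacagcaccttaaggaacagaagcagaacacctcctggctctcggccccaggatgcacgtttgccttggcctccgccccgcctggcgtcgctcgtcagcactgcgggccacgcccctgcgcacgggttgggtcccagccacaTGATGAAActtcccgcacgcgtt
Ppp1r15a: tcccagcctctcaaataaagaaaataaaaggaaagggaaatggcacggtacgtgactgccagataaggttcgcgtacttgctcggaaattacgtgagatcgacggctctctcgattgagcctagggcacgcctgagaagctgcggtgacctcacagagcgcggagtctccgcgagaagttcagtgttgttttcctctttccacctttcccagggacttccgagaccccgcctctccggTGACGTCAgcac
The ERSE match of Hspa5 begins 65 bases before the start, the CARE matches of Chac1 and Asns begin 193 and 23 bases before it, and the CRE match of Ppp1r15a begins 12 bases before it. A match describes letters and does not show binding. Among all tested genes, 300 have a CARE match in a window, of which 33 were higher and 36 lower (median log2 fold change 0.00). The corresponding numbers for ERSE were 18 genes, 4 higher and 2 lower (median 0.04). For UPRE they were 110 genes, 19 higher and 18 lower (median -0.004). For CRE they were 357 genes, 60 higher and 70 lower (median 0.002). Over all tested genes, 13.1% were higher and 12.8% lower.

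The rest of both pathways was followed through 5 lists, with 113 tested genes in all. Of these, 20 were higher and 15 lower in surgery mice at an adjusted p under 0.05 by edgeR, and the median log2 fold change was -0.09. These are 17.7% and 13.3% of the 113 genes, beside 13.1% and 12.8% over all tested genes, so that both counts are near the background. The 20 higher genes had transcripts of 38.7% to 48.8% GC and the 15 lower genes transcripts of 50.2% to 60.3% GC, with no overlap. With the length and GC trends removed, none of the 113 genes passed in edgeR. At an unadjusted p under 0.05 in that fit, 12 were higher and 15 lower. The share of all tested genes at this unadjusted threshold was not counted. DESeq2 without the trends removed called 20 higher and 14 lower, with 10.7% and 12.3% over all tested genes. Over all tested genes, 121 were higher and 298 lower with the trends removed, against 2249 and 2201 before (0.706% and 1.74%, against 13.1% and 12.8%). In the same contrast 2 of 6 neuron markers were lower, 2 of 5 endothelial markers were higher, and 2 of 5 astrocyte markers were higher and 1 lower, and their part in the pathway changes was not tested. Changes of single pathway genes are given after TMM scaling, and also with the trends removed. The number of lower pathway genes was 7 without control mouse 2, a refit in which the share over all tested genes fell from 12.8% to 6.75%.

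The sensors themselves were close to the control level or missed the threshold. Ern1, which encodes IRE1, had 20.9 and 22.9 CPM in the control mice and 20.5 and 22.6 CPM in the surgery mice, a log2 fold change of -0.02 (95% interval -0.29 to 0.25), with a sign that turned with library totals as the only scaling (0.02), without control mouse 2 (0.04) and without surgery mouse 1 (0.03). Atf6 was at 0.15 (95% interval -0.03 to 0.34) and turned to -0.05 with the trends removed. Of the 4 eIF2 kinases, Eif2ak1 (HRI, activated by heme shortage and mitochondrial stress) was at -0.04, Eif2ak4 (GCN2, activated by amino acid shortage) at -0.14, Eif2ak3 (PERK) at -0.22 and Eif2ak2 (PKR, activated by double-stranded RNA) at 0.57 on the log2 scale, with adjusted p from 0.13 to 0.75 by edgeR. After removal of the trends these 4 were at -0.07, -0.14, -0.17 and 0.26, and Eif2ak1 was at 0.01 with library totals only and at 0.01 without control mouse 1. Eif2ak4 was at -0.23 without control mouse 1 and at -0.05 without control mouse 2, where Eif2ak2 was at 0.89. Eif2ak2 was low, with 3.89 and 5.80 CPM in the control mice and 6.96 and 7.47 CPM in the surgery mice, and its adjusted p was 0.13 by edgeR (0.076 to 0.56 over the alternatives, with a log2 fold change of 0.31 without control mouse 1).

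In the list of eIF2 kinases, eIF2 and eIF2B, 4 of 17 genes were higher and 2 lower (23.5% and 11.8%, beside 13.1% and 12.8% over all tested genes). Eif2s2 and Eif2s1, which encode the beta and alpha subunits of eIF2, rose by log2 fold changes of 0.84 (standard error 0.08) and 0.62 (0.11), and were at 0.20 and 0.14 with the trends removed. Ppp1cb, a catalytic subunit of the phosphatase, rose by 0.73 (0.24 with the trends removed), and Ppp1r15b, the constitutive counterpart of GADD34, which guides that phosphatase to eIF2 in its own right, was the fourth gene, at 0.44 (0.39 with the trends removed). Gcn1l1, a ribosome-bound activator of GCN2, and Eif2b2, a subunit of the exchange factor eIF2B, fell by 0.46 and 0.45 on the log2 scale (-0.20 and -0.26 with the trends removed). The call of Eif2b2 was lost without control mouse 2 (adjusted p = 0.081 by edgeR) and without surgery mouse 2 (0.064), within a range over the alternatives from 0.015 to 0.18.

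Among 39 tested genes of ATF4-linked transcription and amino acid metabolism, 2 were higher and 6 lower (5.13% and 15.4%, beside 13.1% and 12.8% over all tested genes). Slc7a11, the cystine transporter that supplies glutathione synthesis, had 23.6 and 23.8 CPM in the control mice and 44.1 and 69.8 CPM in the surgery mice. This was the largest rise among the named pathway genes, 1.27 on the log2 scale (standard error 0.21, adjusted p = 0.0082 by edgeR), although the surgery mice differed from each other, and it was 0.90 without surgery mouse 2. With the trends removed it was 0.76 (adjusted p = 0.078, the highest over the alternatives). Cebpg, a partner of ATF4 in dimers, rose by 0.60 (0.26 with the trends removed). The 6 lower genes were Pck2, a mitochondrial enzyme that makes phosphoenolpyruvate (-0.50), the amino acid transporter Slc7a5 (-0.48), the tRNA synthetases Wars (-0.46), Mars (-0.43) and Aars (-0.34), and Ddit4, an inhibitor of mTORC1 (-0.46). The number of lower genes in this list was 2 without control mouse 2, where the calls of Ddit4, Slc7a5, Mars and Aars were lost and 6.75% of all tested genes were lower, and the number of higher genes was 4 without surgery mouse 1, where 11.3% of all tested genes were higher. With the trends removed, Pck2 was at -0.45 (adjusted p = 0.051 by edgeR, the highest over the alternatives), Wars at -0.32, Mars at -0.28, Slc7a5 at -0.26, Ddit4 at -0.19 and Aars at -0.12. The calls of Mars (-0.25) and Aars (-0.25) were also lost without surgery mouse 2, and that of Mars without control mouse 1 and with library totals only. Without a filter on low counts the calls of Slc7a5, Mars and Aars were lost. Fgf21 and Gdf15, hormones that ATF4 induces, were too low to be tested, with 3, 2, 0 and 0 counts and with 0, 6, 5 and 4 counts in control mice 1 and 2 and surgery mice 1 and 2.

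Of 23 ER chaperones and folding enzymes, 8 were higher and 1 was lower (34.8% and 4.35%, beside 13.1% and 12.8% over all tested genes), and their median log2 fold change was 0.15 (0.10 with the trends removed). Hsp90b1, the ER member of the HSP90 family, had 93.4 and 89.3 CPM in the control mice and 143 and 128 CPM in the surgery mice, a rise of 0.57 on the log2 scale (standard error 0.08). Canx, the membrane-bound lectin chaperone calnexin, rose by 0.49 and Ero1l, the oxidase that drives disulfide formation, by 0.84. With the trends removed, these 3 genes were at 0.17, 0.10 and 0.41. Also higher were Dnajb9, a cochaperone of BiP and a target of XBP1 (0.60), Dnajc3 (0.55), Pdia3 (0.44), Ero1lb (0.39) and Dnajc10 (0.30). Removing the trends brought these to 0.12, 0.21, 0.30, 0.09 and 0.05, in the same order. Ero1lb lost its call in DESeq2 (adjusted p = 0.10) and when any single mouse was left out, and Dnajc10 when any but surgery mouse 1 was. Sdf2l1, another BiP partner, went the other way, from 13.4 and 13.8 CPM to 10.2 and 8.71 CPM, a fall of 0.53 on the log2 scale (adjusted p = 0.042 by edgeR, 0.038 to 0.27 over the alternatives), and it was at -0.31 with the trends removed. Its call was lost without control mouse 1, control mouse 2 or surgery mouse 2 and in DESeq2. The same held with library totals only, without a filter on low counts and with the trends removed.

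Among 20 genes of ER-associated degradation and ER export, 5 were higher and 2 lower (25% and 10%, beside 13.1% and 12.8% over all tested genes). Derl2, a channel component for retrotranslocation, rose by 0.74, Ssr3, a subunit of the translocon-associated complex, by 0.61, and Edem3, a mannosidase that marks misfolded glycoproteins, by 0.52, with Ube2j1 (0.38) and Ssr1 (0.38) also higher. After removal of the trends, the 5 genes were at 0.38, 0.14, 0.19, 0.13 and 0.10 in that order. Syvn1, the ubiquitin ligase HRD1 of this pathway, fell by 0.42 (-0.19 with the trends removed). Wfs1, an ER membrane protein that marks CA1 pyramidal neurons in the hippocampus, had 184 and 209 CPM in the control mice and 134 and 108 CPM in the surgery mice, a fall of 0.70 on the log2 scale (standard error 0.12, adjusted p = 0.0085 by edgeR) and -0.44 with the trends removed. Of the 6 markers of hippocampal principal cells, which do not include Wfs1, Fibcd1 was lower and Zbtb20 and Neurod6 were higher, and the part of the cell makeup in the level of Wfs1 was not tested.

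The 14 tested genes of ER stress sensors and their processing held 1 higher and 4 lower genes (7.14% and 28.6%, beside 13.1% and 12.8% over all tested genes). Crebrf, a negative regulator of the unfolded protein response, had 30.6 and 35.5 CPM in the control mice and 56.1 and 61.8 CPM in the surgery mice, a rise of 0.84 on the log2 scale that was 0.22 with the trends removed. Rtcb, the ligase that joins the exons of Xbp1 mRNA after IRE1 has cut it, fell by 0.44 (standard error 0.07, adjusted p = 0.0070 by edgeR), and was at -0.37 with the trends removed (adjusted p = 0.051, the highest over the alternatives). Atf6b, the paralog of Atf6, fell by 0.41 (-0.09 with the trends removed), Mbtps1, a protease that cuts ATF6 in the Golgi, by 0.30 (-0.30), and Bak1, a pore-forming protein of the mitochondrial and ER membranes, by 0.68 (-0.43). The call of Atf6b was lost without control mouse 1 (log2 fold change -0.36) or surgery mouse 2 (-0.30), and that of Mbtps1 without control mouse 2 (-0.28) or surgery mouse 1 (-0.26). Bak1 lost its call without control mouse 1 (adjusted p = 0.091 by edgeR), control mouse 2 (0.10) or surgery mouse 2 (0.13) and in DESeq2 (0.065). With each of these 3 mice left out in turn, 2 genes of the list were called lower, while the share over all tested genes was 9.62%, 6.75% and 7.54%. Among the pathway genes named here, exons of Rtcb, Bak1, Derl2, Syvn1, Hsp90b1, Pdia3, Dnajb9, Pck2, Mars, Aars, Cebpg, Ppp1r15b, Eif2ak1, Eif2ak2 and Eif2ak3 overlap a gene on the opposite strand and those of Ppp1cb, Gcn1l1, Cebpg, Aars and Hsp90b1 one on the same strand, and their counts share the uncertainty given for Ddit3.

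**Figure D3:**
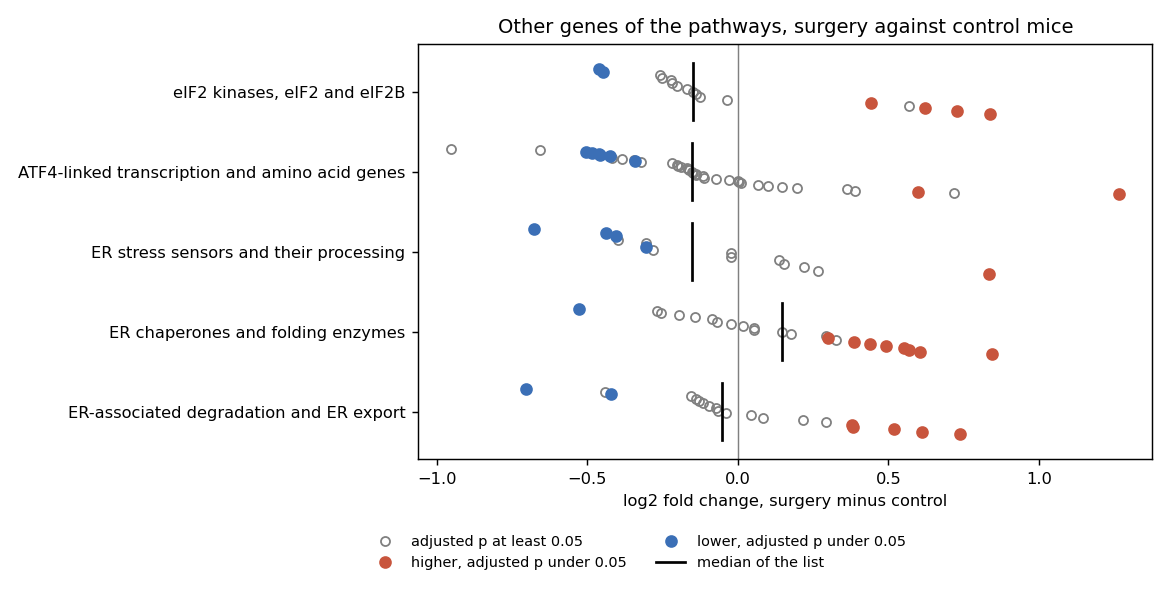
Log2 fold change, surgery minus control (horizontal axis), of each tested gene (points) in the 5 lists (rows), after TMM scaling. Filled points passed an adjusted p under 0.05 by edgeR (red higher, blue lower), open points did not, and the vertical lines are the medians of the lists, which ran from -0.15 to 0.15.

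Among the 10 genes, the position against genes of like GC content differed from gene to gene. Chac1, Ppp1r15a, Asns and Ddit3 lay within 0.19 of the median of their eighth on the log2 scale, on its lower side, and Hspa5 and Atf4 lay 0.14 and 0.17 above it. Xbp1 lay 0.53 above, Atf3 0.68, Trib3 0.65 and Sesn2 0.34. With the trends removed Sesn2 was at 0.28 (standard error 0.10), with an adjusted p of 0.17 by edgeR (0.11 to 1.00 over the alternatives). These differences are descriptions with no test of their own.

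**Figure D4:**
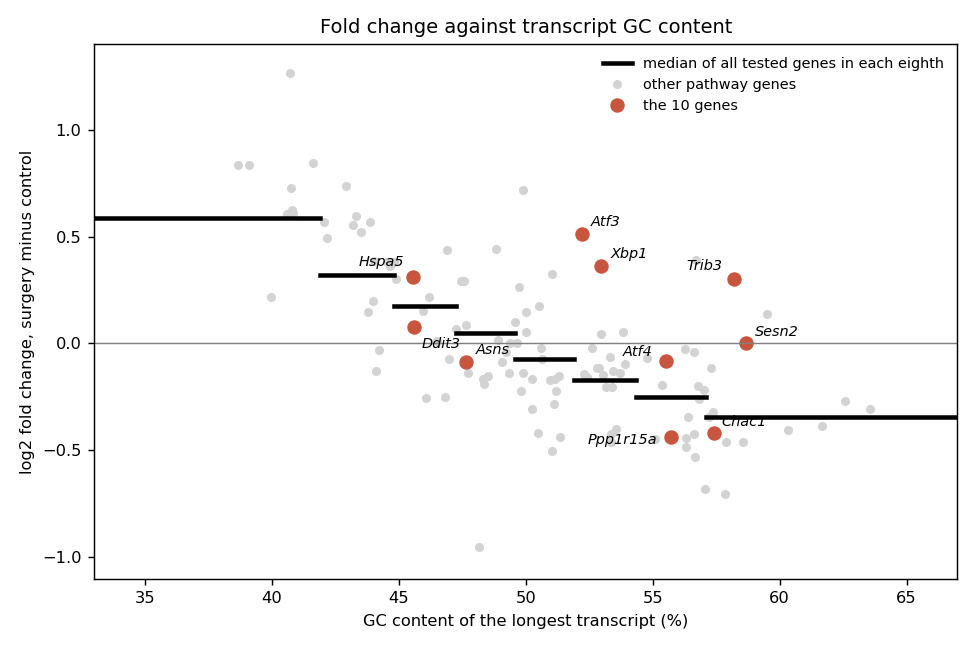
Log2 fold change, surgery minus control (vertical axis), against the GC content of the longest transcript (horizontal axis, limited to the range from 33% to 67%) for the 10 genes (red, named) and the other pathway genes (grey). Black lines are the medians of all tested genes in each eighth of GC content, which fall from 0.59 to -0.34. Among the 10 genes, Xbp1, Atf3, Trib3 and Sesn2 lie furthest above the lines.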

How the data were processed

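Hippocampal poly(A) RNA of 2 control and 2 surgery mice was sequenced in paired reads of 150 nt. After filtering, the authors aligned them with HISAT to the mouse genome mm10, and the deposited values are raw counts per gene and mouse. The submitters' processing notes list HISAT2 2.1.0, HTSeq 0.6.0, Bowtie2 2.2.3 and TopHat2 without their roles, and use of strand is not given in the sources used here. The table also holds the authors' own mean, fold change, p-values and marks, which were not used.

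Counts were filtered with filterByExpr (minimum count 10), scaled by TMM (factors 0.982 to 1.02) and tested in R 4.3.3 with edgeR 4.0.16 (quasi-likelihood test, condition as the only term, Benjamini-Hochberg adjustment over 17144 genes). Standard errors and 95% intervals were taken from the F statistic. The p-values use a dispersion for each gene that was moderated with information from all genes, as there were only 2 mice in each group. They measure the spread between these samples only. Transcript length, GC content and overlaps came from GENCODE M21, whose gene coordinates were the same for 9 of the 10 genes. The remaining gene, Atf4, differed by 1 base at its end. Trends with length and GC content were fitted per library with mgcv 1.9.3 (basis size 8) and used as offsets. DESeq2 1.42.0, other scalings and filters, the replicate number as a block and omission of each mouse were the alternatives. The code was tested on simulated counts.

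The 10 genes and the gene lists were chosen with earlier results of these data known. Named pathway genes were the up to 3 higher and 3 lower genes per list with the smallest adjusted p and a mean of at least 1 CPM, and 6 sensors. Slc7a5, Mars, Aars, Dnajb9, Dnajc3, Pdia3, Ero1lb, Dnajc10, Ube2j1, Ssr1, Ppp1r15b, Bak1, Fgf21 and Gdf15 were named after their values were seen. Older symbols of listed genes were matched through their Ensembl identifiers, and 4 of 117 listed pathway genes were too low to be tested.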

Additional observations from a re-analysis of the deposited data

How the results depend on the processing

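Xbp1 was the only one of the 10 genes called higher by the main test, and in the refits its call was lost without control mouse 2 and without a filter on low counts (adjusted p = 0.061 by edgeR). The number of the 10 genes called higher was 2 with library totals only and 2 in DESeq2 (Xbp1 and Hspa5), 0 without a filter, 0 under the DEG rule and 1 to 2 when single mice were left out. The number called lower was 0 to 1 when single mice were left out, and 0 otherwise. The median log2 fold change of the 10 genes ran from -0.08 to 0.11 and moved by less than the spread between replicates. Of the other pathway genes, 20 were higher and 15 lower, against 10 and 2 under the DEG rule, 0 and 0 with the length and GC offsets, 6 and 8 with these offsets and the replicate block, and 17 and 8 without a filter. Over all tested genes the called shares moved as well, from 13.1% and 12.8% to 0.706% and 1.74% with the offsets, 4.05% and 9.05% with offsets and block, 4.49% and 4.61% without a filter, 15.5% and 10.6% with library totals, and 10.7% and 12.3% in DESeq2. Leaving out single mice gave 18 to 21 higher and 7 to 19 lower, with 7 without control mouse 2. In each of these refits, both called shares over all tested genes were lower than in the main fit. Each refit left 1 mouse in a group, and its pathway counts were not tested against these shares. The cause of these shifts was not tested. The replicate block alone called 1 of the 10 genes and 21 pathway genes higher and 21 lower, with 15.5% and 15.3% over all tested genes. The labels do not say that equal numbers mark paired mice, and the deviations of equally numbered mice correlated at 0.22 across genes. Atf3 and Trib3, with 10 to 24 counts per library, are limited by depth, and both were removed by a filter of 1 CPM in all libraries.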
